A study of Mus musculus with 15 samples.

Results

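10 genes of the NF-kB pathway and its TNF receptor inputs were followed in mouse pancreatic islets: Tnfrsf1a, Tnfrsf1b, Nfkb1, Nfkb2, Relb, Nfkbia, Nfkbiz, Tnfaip3, Tnfaip2 and Icam1. They were taken by symbol from the 24060 rows of the deposited count table, and all 10 were among the 15460 rows that passed the filter on low counts. RNA of bulk islets was sequenced in 15 libraries, 3 in each of 5 groups of FVB/NJ mice aged 9 to 10 weeks. The hIAPP:hCAST group carried transgenes for human IAPP, driven by the insulin II promoter, and for human CAST, labelled as under insulin. The hIAPP group carried human IAPP alone, the rIAPP group carried rodent IAPP, and the hCAST group carried human CAST, each under the insulin II promoter, and the WT group carried no transgene. IAPP is islet amyloid polypeptide, a hormone that beta cells release with insulin, and amyloid fibrils form from the human peptide but not from that of rodents. CAST is calpastatin, the inhibitor of calpain proteases. The insulin promoter is used to place a transgene in beta cells, so any change in another islet cell type lies outside the cells meant to carry it. The sources used here do not give the transgene line, sex, litter or number of mice behind a library.

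NF-kB is a family of dimeric transcription factors that wait in the cytoplasm bound to inhibitory IkB proteins. In the canonical arm, a ligand such as TNF engages its receptor, the IKK kinase complex marks IkB for destruction, and p50 and RelA dimers move to the nucleus. In the non-canonical arm, processing of p100 to p52 frees dimers with RelB. Several targets of NF-kB are its own inhibitors and subunits, so the pathway feeds back on itself at the RNA level, while the step that activates it acts on proteins, which RNA counts do not measure.

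The libraries held 28287011 to 40191501 counts each. WT 2, WT 3 and rIAPP 2 were rich in reads of the ribosomal-type rows Rn45s, Lars2 and Mir6236, at 94.3%, 68.9% and 67.7% of counts, which left 1667190, 8796210 and 9510502 other counts, against 30199765 to 40062153 in the remaining libraries. The 10 genes together had 399 counts in WT 2, against 10539 in hIAPP:hCAST 3. Single values of WT 2 therefore rest on few reads, such as 4 for Tnfrsf1b and 8 for Relb. The islet hormone genes were abundant in all groups, Ins2 for instance at 36059 ± 2963 CPM in hIAPP:hCAST, 37928 ± 2412 in hIAPP, 24817 ± 2237 in rIAPP, 47560 ± 3284 in hCAST and 62226 ± 4938 in WT (SD, n = 3). Levels are CPM, counts relative to a library size that was scaled by TMM, a method that lines up the bulk of genes between libraries. Mouse Cast did not pass in the comparisons of hCAST with WT or hIAPP:hCAST with hIAPP, and the human transgenes themselves were not analysed here.

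Per transcript length, the 10 genes spanned a wide range. On the TPM scale, made from the deposited FPKM, Nfkbia averaged 51.7 over the 15 libraries (range 40.7 to 67.9) and Nfkb1 34.6 (28.1 to 39.6). Tnfrsf1a averaged 13.3 TPM (9.55 to 19.9) and Nfkbiz 12.7 (7.02 to 21.6), followed by Tnfaip2 at 6.41, Nfkb2 at 5.21, Icam1 at 4.42 and Relb at 3.67. Tnfaip3 averaged 2.41 TPM (1.81 to 3.51), and Tnfrsf1b was the lowest at 1.58 (0.729 to 3.20). On this scale the inhibitor Nfkbia and the subunit Nfkb1 had the highest per-length levels, and the first TNF receptor stood above the second in every group. The order depends on the gene lengths behind the deposited FPKM. These were 4118 bases for Nfkb1, against 12061 in its merged GENCODE exons, and 4913 for Tnfrsf1b, against 3818.

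**Figure D1:**
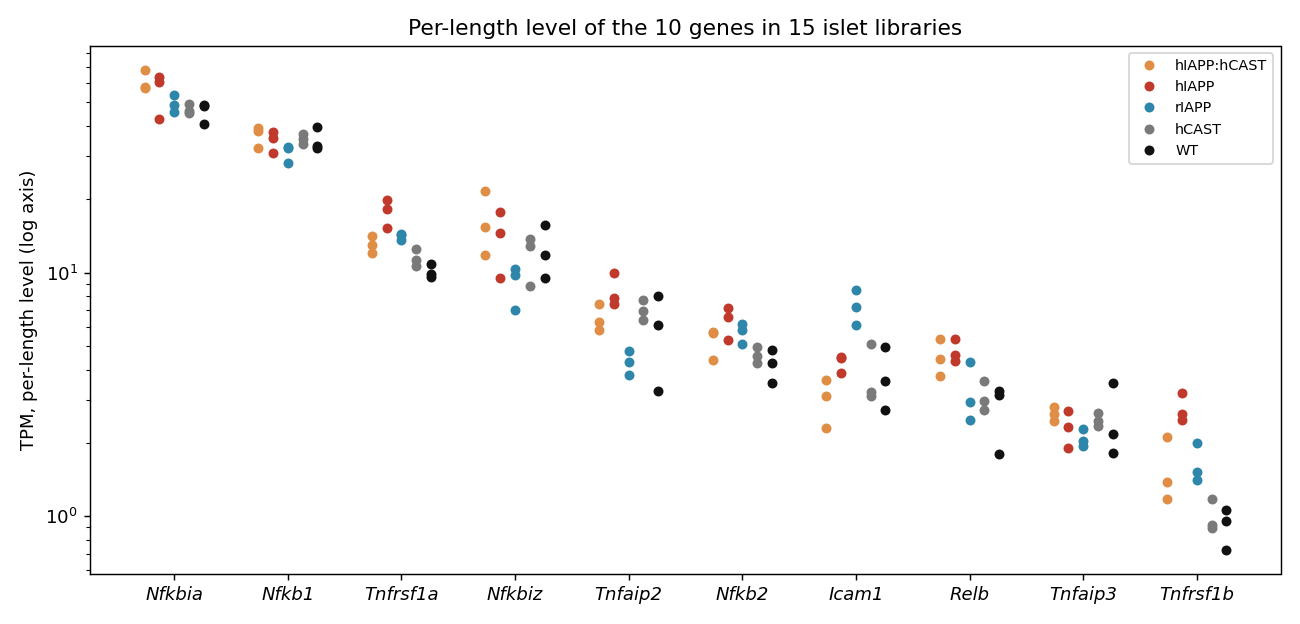
Per-length level (TPM, log axis) of each of the 10 genes, 1 point per library, coloured by group, with genes ordered by their mean. Nfkbia averaged 51.7 TPM at the left end and Tnfrsf1b 1.58 TPM at the right end.

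The promoter windows of Tnfrsf1a, Tnfrsf1b, Tnfaip2, Icam1 and Nfkb2, which were called in at least 1 comparison, and of Nfkbia, a well-known direct NF-kB target, are shown because the pathway acts through DNA motifs near gene starts. Each window holds 300 bases around a RefSeq gene start on GRCm38.p6, read 5′ to 3′ on the gene's strand. Capitals mark matches, on either strand, to the 10-letter NF-kB consensus or to the shorter motif GGNNNTTCC, which overlap each other at several places.
Tnfrsf1a, chr6:125349473-125349772, plus strand: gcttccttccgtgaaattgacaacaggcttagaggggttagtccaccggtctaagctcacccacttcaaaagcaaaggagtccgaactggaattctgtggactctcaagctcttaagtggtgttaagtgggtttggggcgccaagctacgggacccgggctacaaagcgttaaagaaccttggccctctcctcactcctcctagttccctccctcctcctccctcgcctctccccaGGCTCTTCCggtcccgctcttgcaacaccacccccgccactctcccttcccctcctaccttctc
Tnfrsf1b, chr4:145246821-145247120, minus strand: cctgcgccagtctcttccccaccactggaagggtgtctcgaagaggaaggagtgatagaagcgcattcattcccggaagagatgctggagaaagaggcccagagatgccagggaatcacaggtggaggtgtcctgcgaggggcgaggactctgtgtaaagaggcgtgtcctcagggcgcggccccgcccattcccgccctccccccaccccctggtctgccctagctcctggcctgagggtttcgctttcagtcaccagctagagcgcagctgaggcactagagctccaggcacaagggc
Tnfaip2, chr12:111442411-111442710, plus strand: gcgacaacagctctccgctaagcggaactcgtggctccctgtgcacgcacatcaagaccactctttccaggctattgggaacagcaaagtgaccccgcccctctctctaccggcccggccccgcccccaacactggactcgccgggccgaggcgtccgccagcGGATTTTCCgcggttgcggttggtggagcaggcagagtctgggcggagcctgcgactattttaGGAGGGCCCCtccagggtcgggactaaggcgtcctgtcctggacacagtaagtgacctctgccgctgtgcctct
Icam1, chr9:21015690-21015989, plus strand: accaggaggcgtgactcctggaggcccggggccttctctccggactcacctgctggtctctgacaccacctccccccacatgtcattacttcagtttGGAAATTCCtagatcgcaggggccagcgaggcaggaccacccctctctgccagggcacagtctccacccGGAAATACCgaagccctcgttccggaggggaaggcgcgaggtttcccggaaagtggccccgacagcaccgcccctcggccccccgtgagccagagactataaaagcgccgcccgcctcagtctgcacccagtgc
Nfkbia, chr12:55492598-55492897, minus strand: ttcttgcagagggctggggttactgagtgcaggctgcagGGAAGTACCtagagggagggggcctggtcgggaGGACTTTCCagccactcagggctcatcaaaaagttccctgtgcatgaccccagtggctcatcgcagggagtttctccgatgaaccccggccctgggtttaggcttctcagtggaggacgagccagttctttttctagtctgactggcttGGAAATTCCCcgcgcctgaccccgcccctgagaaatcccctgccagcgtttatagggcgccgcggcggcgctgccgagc
Nfkb2, chr19:46304487-46304786, plus strand: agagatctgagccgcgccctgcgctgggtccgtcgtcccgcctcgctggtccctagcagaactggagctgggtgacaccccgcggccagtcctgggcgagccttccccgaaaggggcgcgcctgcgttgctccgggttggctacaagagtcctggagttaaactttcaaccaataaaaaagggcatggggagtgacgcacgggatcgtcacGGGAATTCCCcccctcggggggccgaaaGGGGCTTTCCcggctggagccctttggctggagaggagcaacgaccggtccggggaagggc
Of the 10 genes, 7 matched the RefSeq table, with 10 windows in all, and Nfkb1, Nfkbiz and Relb did not match. The consensus occurred in Nfkb2, Nfkbia, Tnfaip3 and Tnfaip2, in 4 of the 7 genes against 6.55% of all 27025 genes, and in 6 of the 10 windows against 5.8% of all 32851 windows of the same length. In the window shown for Nfkb2 it lay at positions -39 and -11 from the gene start, and in Nfkbia at -29. GGNNNTTCC occurred in 6 of the 7 genes against 20.66% of all genes, and in 9 of the 10 windows against 18.48% of all windows. It lay at -153 and -84 in Icam1 and at -14 in Tnfrsf1a. The Tnfrsf1b window held neither set of letters. The windows are not all separate: those of Nfkb2 at 46305445 to 46305744 and 46305680 to 46305979 overlap, and the same consensus match counts in both. The 10 genes were chosen as members of the pathway and include known NF-kB targets, so the shares do not test an excess of matches. These matches describe the sequence and were not tied to binding of a factor in these islets.

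The comparison of hIAPP with WT asked which of the genes changed with a human IAPP transgene. Tnfrsf1a and Tnfrsf1b, the receptors for TNF, and Nfkb2, the precursor of the non-canonical subunit p52, rose in hIAPP islets, and none of the 10 fell. That is 3 of 10 genes higher, where 6.27% of all tested genes were higher, 5.59% lower and 11.9% changed in either direction. The hIAPP and WT libraries did not overlap, with hIAPP higher, for Nfkb2, Relb, Tnfrsf1a and Tnfrsf1b, against 17.9% of all genes, and for 0 with hIAPP lower, against 15.2%. The median log2 fold change of the 10 was 0.30, beside 0.02 over all tested genes. In edgeR's quasi-likelihood test the other 7 did not pass, among them the feedback inhibitors Nfkbia, Nfkbiz and Tnfaip3.

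The comparison of rIAPP with WT asked the same for a rodent IAPP transgene. Icam1, an adhesion molecule that leukocytes bind, and Tnfrsf1a rose in rIAPP islets, while Nfkb1, the precursor of p50, and Tnfaip2 fell. These 4 calls stand beside 23.3% of all tested genes called, 10.7% higher and 12.6% lower. The libraries did not overlap for 4 genes higher in rIAPP (Nfkb2, Tnfrsf1a, Tnfrsf1b and Icam1, against 21.7% of all genes) and for 2 lower (Nfkb1 and Nfkbiz, against 19%). The median log2 fold change was 0.11, beside 0.01 over all genes.

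The direct comparison of hIAPP with rIAPP asked how the 2 transgenes differ. Tnfaip2, Tnfrsf1a and Tnfrsf1b were higher in hIAPP than in rIAPP islets and Icam1 was lower, 4 of 10 genes beside 13% of all tested genes (7.71% higher and 5.28% lower). The libraries did not overlap for 5 genes higher and 1 lower in hIAPP, beside 19.8% and 15.7% of all genes, and the median log2 fold change was 0.24 beside 0.01.

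**Figure D2:**
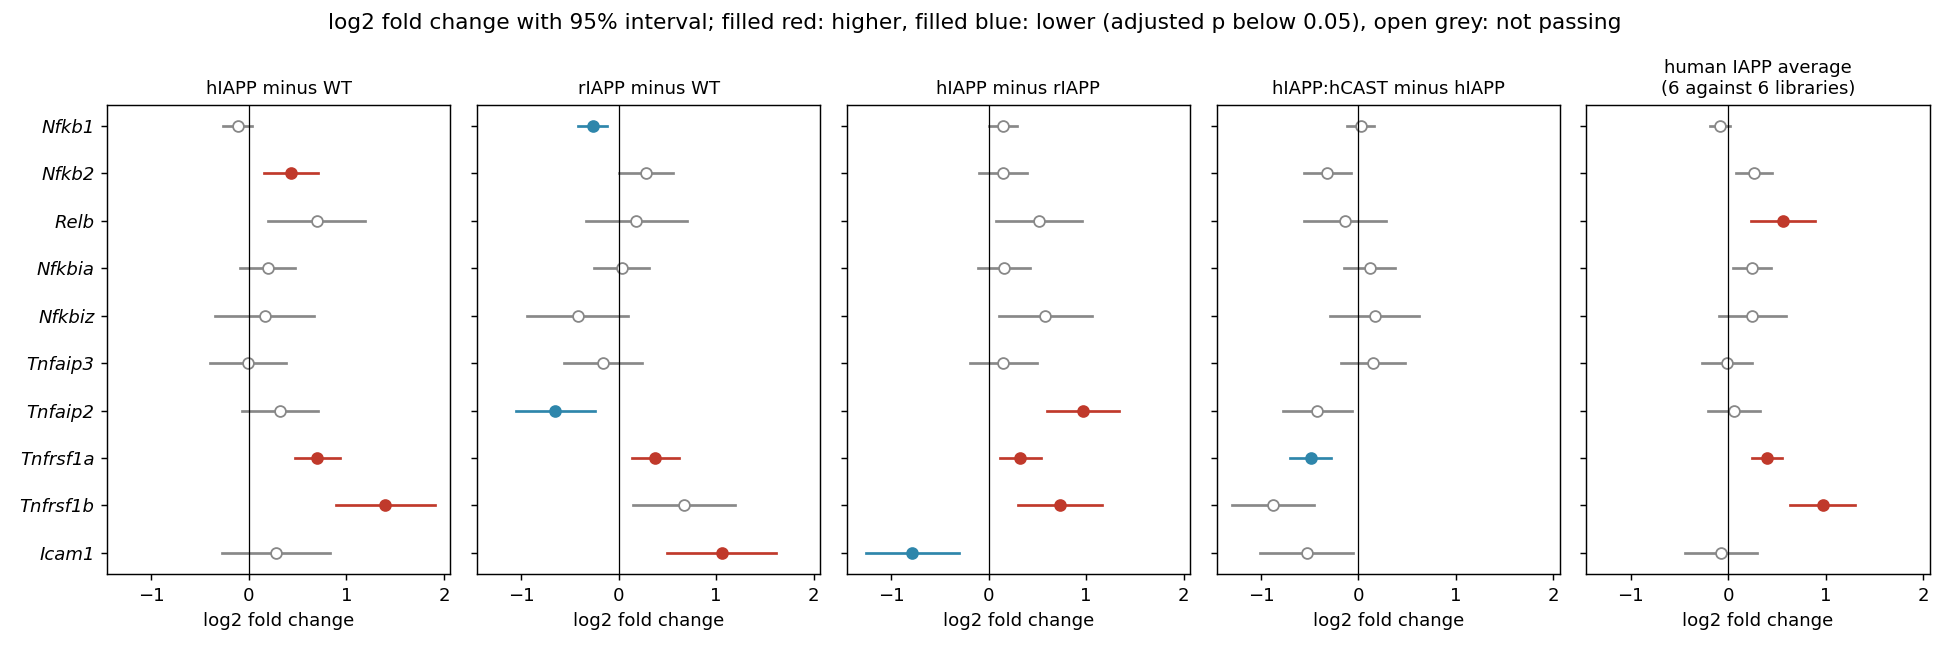
log2 fold change (points) with its 95% interval (lines) for the 10 genes in 5 comparisons, all on 1 axis, with filled red points for genes that rose, filled blue for genes that fell and open grey for genes that did not pass. Tnfrsf1b stands farthest right in the first panel, at 1.40, and Icam1 farthest right in the second, at 1.06.

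Tnfrsf1b encodes the second TNF receptor, which lacks a death domain and is prominent on immune and endothelial cells (GRCm38, chromosome 4, 145213463 to 145246870, minus strand). It had 4.45, 2.71 and 2.54 CPM in hIAPP:hCAST libraries 1 to 3, 5.18, 6.18 and 6.40 in hIAPP islets, 4.13, 3.18 and 3.24 in rIAPP islets, 2.02, 1.96 and 2.68 in hCAST, and 2.32, 1.75 and 2.24 in WT. All 3 hIAPP libraries lay above all 12 others, the rIAPP libraries lay above those of WT and hCAST, and hIAPP:hCAST overlapped with both rIAPP and hCAST. Against WT, hIAPP was higher by 1.40 ± 0.239 on the log2 scale (SE, n = 3 each, 95% interval 0.89 to 1.91, edgeR adjusted p = 0.00191), which is 2.64-fold. The call held without any 1 library (adjusted p 0.00355 to 0.0162), and against hCAST in place of WT (1.41 ± 0.204, adjusted p = 0.000501). Without WT 2, WT 3 and rIAPP 2 the difference was 1.34 with an adjusted p of 0.0616, a fit in which the lone WT library was assumed to vary like the other groups. In rIAPP the difference from WT was 0.67 ± 0.246 (adjusted p = 0.0597) and did not pass. It passed against hCAST in place of WT (0.68 ± 0.211, adjusted p = 0.0286), with the rIAPP and WT libraries alone (0.67, 0.0276) and on rescaled FPKM plus 1 (0.46, 0.0354). hIAPP exceeded rIAPP by 0.73 ± 0.204 (adjusted p = 0.0232), a call lost without hIAPP 2, hIAPP 3, rIAPP 2 or rIAPP 3 (adjusted p up to 0.102) and without WT 2, WT 3 and rIAPP 2 together (0.121).

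Tnfrsf1a encodes the death-domain TNF receptor found on most cell types (chromosome 6, 125349362 to 125362484, plus strand). It had 13.1, 12.1 and 10.5 CPM in hIAPP:hCAST, 16.7, 15.8 and 17.5 in hIAPP islets, 13.1, 14.3 and 12.7 in rIAPP islets, 10.8, 10.2 and 12.4 in hCAST, and 10.5, 10.1 and 10.0 in WT. The 3 hIAPP libraries were again above all others, and the rIAPP libraries were above those of WT and of hCAST. The hIAPP level was 1.63-fold the WT level (log2 0.70 ± 0.111, adjusted p = 0.00103), and this held without any 1 library (0.00325 to 0.00900). It also held without WT 2, WT 3 and rIAPP 2 together, a fit with WT 1 as the only WT library. The rIAPP level exceeded WT by 0.38 ± 0.113 on the log2 scale (adjusted p = 0.0232). That call was lost without rIAPP 2 (0.0725), WT 1 (0.0636) or WT 3 (0.0808), without WT 2, WT 3 and rIAPP 2 together (0.276), and against hCAST (0.25 ± 0.101, adjusted p = 0.083). hIAPP exceeded rIAPP by 0.33 ± 0.10 (adjusted p = 0.0397), and this call was lost when any 1 of the 6 libraries was left out (0.0539 to 0.143) or WT 2, WT 3 and rIAPP 2 together (0.0692).

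Both receptors had their lowest values among the human IAPP carriers in the double transgenic islets. The comparison of hIAPP:hCAST with hIAPP asked whether calpastatin changes expression on the human IAPP background. Tnfrsf1a fell to 11.9 ± 1.32 CPM in hIAPP:hCAST, against 16.7 ± 0.828 in hIAPP (log2 -0.49 ± 0.0983, 0.712-fold, adjusted p = 0.038), and it was the only 1 of the 10 genes to pass, beside 0.466% of all tested genes (0.0906% higher and 0.375% lower). The call was lost without hIAPP 1 (0.137), hIAPP 2 (0.0834), hIAPP 3 (0.115) or hIAPP:hCAST 3 (0.0857), and in a fit of these 6 libraries alone (0.28). It was also lost on rescaled FPKM plus 1 (0.22) or plus 0.1 (0.313). Tnfrsf1b averaged 3.23 ± 1.06 CPM in hIAPP:hCAST and 5.92 ± 0.653 in hIAPP (log2 -0.87 ± 0.198, 95% interval -1.29 to -0.46, adjusted p = 0.0564). It did not pass in edgeR with the filter on low counts. With all libraries Tnfrsf1b passed in DESeq2 (-0.88, adjusted p = 0.0102) and in edgeR without the filter (-0.87, 0.0451). Among the 6 edgeR fits with 1 library left out it passed only without hIAPP:hCAST 1 (-1.17, 0.00735), the library with the highest of the 3 double transgenic values. In the other such fits it did not pass (adjusted p up to 0.195). The libraries did not overlap, with hIAPP:hCAST lower, for Nfkb2, Tnfrsf1a, Tnfrsf1b and Icam1, beside 8.69% of all genes, and for 0 of the 10 with hIAPP:hCAST higher, beside 7.19%. The median of the 10 was -0.23, beside 0.00 over all genes.

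The test of whether calpastatin modifies the human IAPP difference is the interaction, the difference of hIAPP:hCAST from hCAST minus that of hIAPP from WT. In edgeR 0 of the 10 genes passed it, beside 0 of all 15460 tested genes (0%). An unadjusted p below 0.05 was found for 2 of the 10, beside 1346 of all 15460. In DESeq2 0 of the 10 passed, beside 45 of 15459 genes. Its estimate was -0.61 ± 0.149 for Tnfrsf1a (95% interval -0.93 to -0.30, adjusted p = 0.274) and -0.86 ± 0.315 for Tnfrsf1b (-1.53 to -0.20, adjusted p = 0.462). On the hCAST background, hIAPP:hCAST against hCAST gave 0.09 ± 0.0990 for Tnfrsf1a (-0.12 to 0.30) and 0.54 ± 0.206 for Tnfrsf1b (0.10 to 0.97, adjusted p = 0.354). In that comparison 0 of the 10 genes passed in edgeR and 0 in DESeq2, beside 0.75% of all genes in edgeR (0.517% higher and 0.233% lower). At an unadjusted p below 0.05 were 3 of the 10, beside 1465 of all 15460. Relb alone was higher without overlap, beside 6.64% of all genes, and 0 were lower, beside 6.61%. For hCAST against WT 0 of the 10 passed in edgeR and in DESeq2, beside 0.0194% of all genes in edgeR. There 0 of the 10 had an unadjusted p below 0.05, beside 1133 of all 15460. Its libraries overlapped for all 10, beside 7.59% of all genes higher and 6.57% lower without overlap. There the estimates ran from -0.04 to 0.16, with 95% intervals of -0.11 to 0.36 for Tnfrsf1a and -0.53 to 0.50 for Tnfrsf1b.

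Averaged over both backgrounds, human IAPP carriers (6 libraries of hIAPP:hCAST and hIAPP) were compared with the 6 libraries of hCAST and WT. Tnfrsf1b was higher by 0.97 ± 0.158 (adjusted p = 0.000845), Tnfrsf1a by 0.40 ± 0.0743 (adjusted p = 0.00255) and Relb by 0.56 ± 0.156 (adjusted p = 0.0252), 3 of 10 genes beside 7.32% of all genes higher, 5.83% lower and 13.2% called. Both receptor calls held without each of the 12 libraries in turn. Relb was the only 1 of the 10 without overlap between the 2 sets of 6, higher in human IAPP carriers, beside 2.17% of all genes (1.81% lower), and its call was lost without hIAPP 1 (0.0568), WT 3 (0.0761) or hCAST 1 (0.0631). It was also lost without WT 2, WT 3 and rIAPP 2 together (0.113). The median of the 10 was 0.25, beside 0.01 over all genes.

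**Figure D3:**
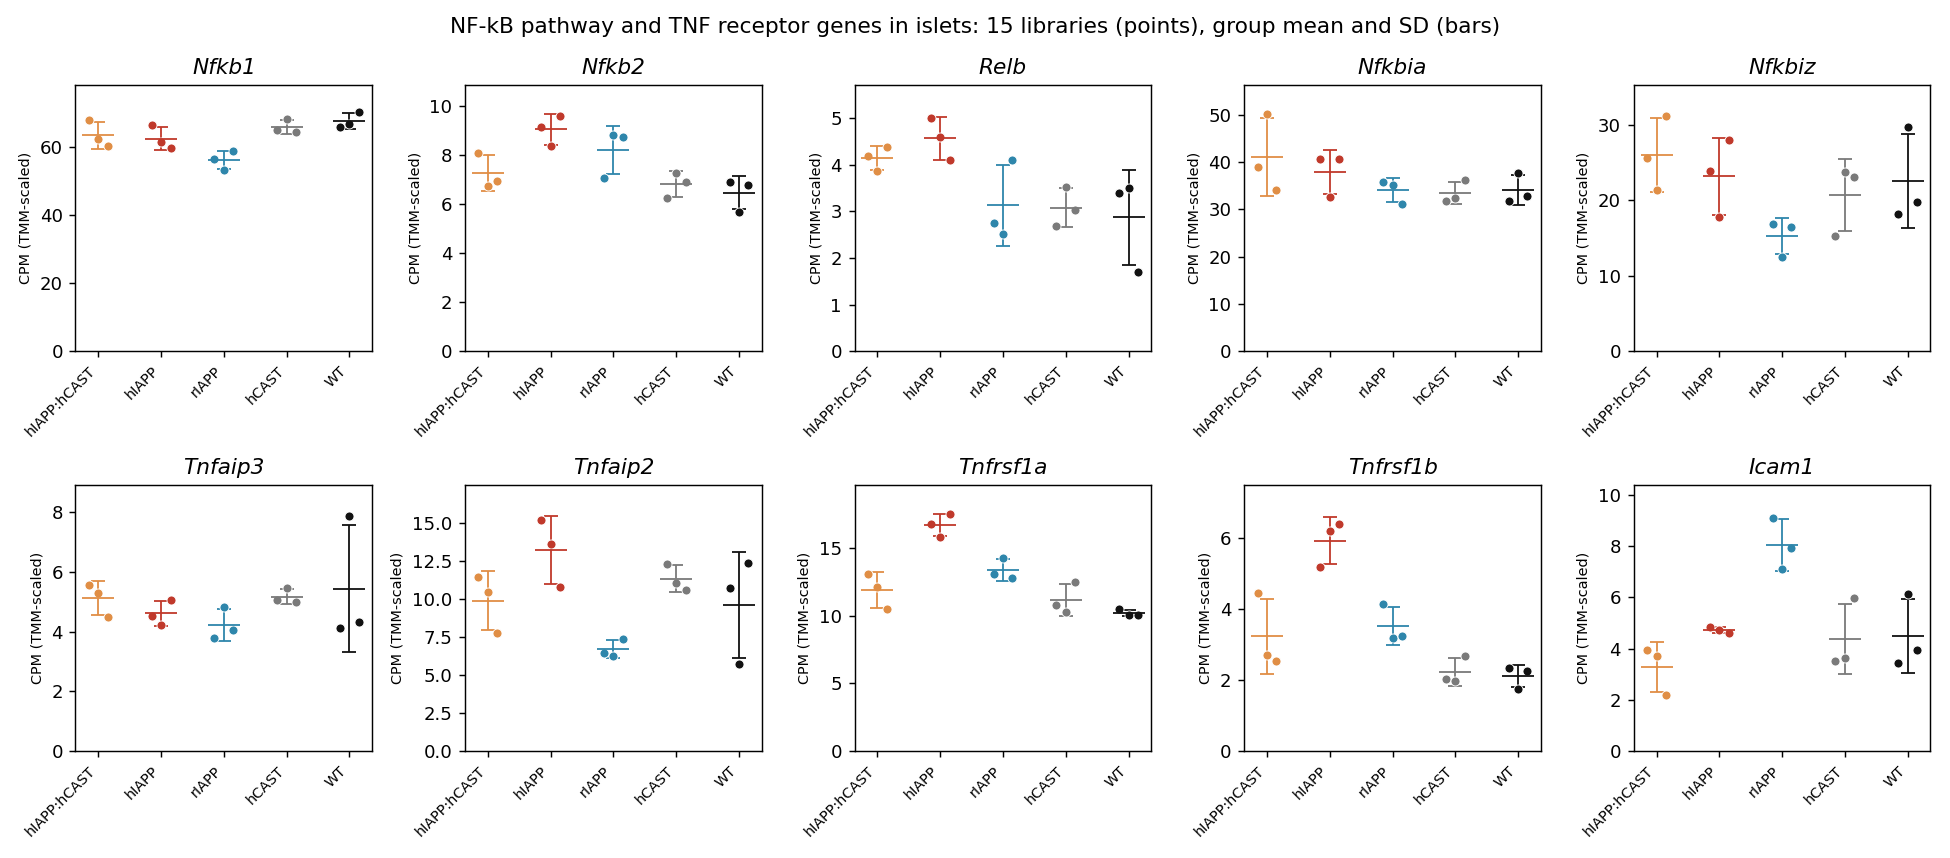
Level (CPM, TMM-scaled) of each of the 10 genes in the 15 libraries, with points for libraries, horizontal marks for group means and bars for the SD (n = 3). The hIAPP points of Tnfrsf1a (15.8 to 17.5) and Tnfrsf1b (5.18 to 6.40) lie above those of every other group, and the rIAPP points of Icam1 (7.10 to 9.11) lie above every other group.

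Among the subunits, Nfkb2 and Relb form the non-canonical arm. Nfkb2 (chromosome 19, 46304320 to 46312385, plus strand) had 8.10, 6.76 and 6.95 CPM in hIAPP:hCAST, 9.16, 8.38 and 9.62 in hIAPP islets, 7.08, 8.81 and 8.75 in rIAPP islets, 6.24, 7.28 and 6.91 in hCAST, and 6.92, 5.69 and 6.79 in WT. The hIAPP values were above all hIAPP:hCAST, hCAST and WT values and overlapped with rIAPP. Its rise in hIAPP over WT was 0.43 ± 0.130 (95% interval 0.16 to 0.71, adjusted p = 0.0407), and the call was lost when any 1 of the 6 libraries was left out (0.0553 to 0.121), without WT 2, WT 3 and rIAPP 2 together (0.268), without the filter (0.0525), with the compared groups alone (0.059) and in voom (0.0807). Against hCAST it was 0.41 ± 0.115 (adjusted p = 0.0396). Exons of Nfkb2 overlap those of Psd and of a noncoding RNA on the opposite strand, and the strand setting of the counting is not given in the sources used here, so reads of the overlap cannot be told apart.

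Relb (chromosome 7, 19606217 to 19629438, minus strand) had 4.18, 3.87 and 4.38 CPM in hIAPP:hCAST, 5.01, 4.59 and 4.09 in hIAPP islets, 2.75, 2.52 and 4.11 in rIAPP islets, 2.68, 3.51 and 3.03 in hCAST, and 3.40, 3.50 and 1.70 in WT. All 6 libraries with human IAPP were above all 6 of hCAST and WT, while rIAPP reached from the lower to the upper range. For hIAPP against WT the difference was 0.69 ± 0.237 (95% interval 0.19 to 1.19, adjusted p = 0.0656) and did not pass in edgeR. With all libraries it passed in DESeq2 (0.69, adjusted p = 0.0397), in voom with sample weights (0.78, 0.0473) and on rescaled FPKM plus 1 (0.65, 0.0334) or plus 0.1 (0.82, 0.0389). Among the 6 edgeR fits with 1 library left out it passed only without WT 1 (1.13, 0.0377). Over these fits the difference went down to 0.42 and the adjusted p up to 0.3. Nfkb1 (chromosome 3, 135584655 to 135691547, minus strand) differed little between groups, with means of 63.4 ± 3.93 CPM in hIAPP:hCAST, 62.4 ± 3.48 in hIAPP, 56.1 ± 2.71 in rIAPP, 65.7 ± 2.05 in hCAST and 67.5 ± 2.38 in WT. Its rIAPP libraries, at 56.4, 53.2 and 58.6 CPM, were below those of every other group. Their log2 fold change against WT was -0.27 ± 0.0709 (adjusted p = 0.0119), a call lost without rIAPP 2 (0.0506) or WT 3 (0.0607), without WT 2, WT 3 and rIAPP 2 together (0.218) and on the FPKM scale (0.365 with a pseudocount of 1). For hIAPP against WT the 95% interval was -0.26 to 0.03.

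Nfkbia, Nfkbiz and Tnfaip3, inhibitors or modulators that NF-kB itself induces in many cell types, did not pass edgeR's quasi-likelihood test in any of the 8 comparisons, while other fits called Nfkbia and Nfkbiz in 1 comparison each. Nfkbia encodes IkB-alpha, the inhibitor that is degraded and remade in each round of activation (chromosome 12, 55489410 to 55492647, minus strand). It had 39.0, 50.2 and 34.1 CPM in hIAPP:hCAST, 40.7, 32.5 and 40.6 in hIAPP islets, 35.8, 35.2 and 31.1 in rIAPP islets, 31.7, 32.5 and 36.1 in hCAST, and 31.7, 37.7 and 32.8 in WT. The groups overlapped, and the highest value was that of hIAPP:hCAST 2. The hIAPP difference from WT was 0.19 ± 0.132 (95% interval -0.09 to 0.47, adjusted p = 0.375), so a rise of up to 0.47 lies inside the interval. Averaged over both backgrounds it was 0.24 ± 0.0902 (adjusted p = 0.0844), and this passed in voom with sample weights (0.036), on rescaled FPKM plus 1 (0.05, rounded), and without hIAPP 2 (0.0482) or hIAPP:hCAST 3 (0.0135).

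Nfkbiz encodes IkB-zeta, a nuclear IkB protein that acts as a cofactor at a subset of targets (chromosome 16, 55811375 to 55838899, minus strand). Its means were 26.0 ± 4.93 CPM in hIAPP:hCAST, 23.2 ± 5.14 in hIAPP, 15.3 ± 2.42 in rIAPP, 20.7 ± 4.72 in hCAST and 22.6 ± 6.27 in WT. The 3 rIAPP libraries, at 12.5 to 16.9 CPM, were below the WT and hIAPP libraries, but the difference of -0.42 ± 0.241 from WT did not pass (adjusted p = 0.233). For hIAPP against rIAPP, Nfkbiz differed by 0.58 ± 0.220 (adjusted p = 0.112 in edgeR), and this passed in DESeq2 (0.0439) and without hIAPP 2 (0.0495). In the other edgeR fits with 1 library left out Nfkbiz did not pass (adjusted p up to 0.311). Tnfaip3 encodes A20, a ubiquitin-editing enzyme that shuts off TNF signalling (chromosome 10, 19000910 to 19015657, minus strand). It averaged 5.12 ± 0.563 CPM in hIAPP:hCAST, 4.61 ± 0.428 in hIAPP, 4.22 ± 0.528 in rIAPP, 5.16 ± 0.255 in hCAST and 5.44 ± 2.12 in WT, where WT 2 alone stood at 7.88 from 18 counts. The hIAPP difference from WT was -0.01 ± 0.183, with a 95% interval of -0.40 to 0.38.

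Tnfaip2 encodes a protein that TNF induces in endothelial and myeloid cells (chromosome 12, 111442469 to 111455018, plus strand). It had 11.4, 10.4 and 7.73 CPM in hIAPP:hCAST, 15.2, 13.6 and 10.8 in hIAPP islets, 6.46, 6.22 and 7.37 in rIAPP islets, 12.3, 11.1 and 10.6 in hCAST, and 10.7, 5.69 and 12.3 in WT. The rIAPP libraries were below all libraries of hIAPP:hCAST, hIAPP and hCAST and overlapped WT only through WT 2, which rests on 13 counts. hIAPP was 1.96-fold above rIAPP (log2 0.97 ± 0.176, adjusted p = 0.00119), and this held without any 1 library (0.000751 to 0.0110) and without rIAPP 2, WT 2 and WT 3 together. The fall in rIAPP against WT was -0.65 ± 0.193 (adjusted p = 0.0219) and against hCAST -0.75 ± 0.176 (adjusted p = 0.00569). The call against WT was lost without rIAPP 1 (0.0767), rIAPP 2 (0.0644), WT 1 (0.0932) or WT 3 (0.121), without WT 2, WT 3 and rIAPP 2 together (0.111), and on the FPKM scale (-0.30, adjusted p = 0.328, with a pseudocount of 1). hIAPP was not shown to differ from WT (0.32 ± 0.185, adjusted p = 0.282). An antisense RNA overlaps an exon of Tnfaip2, and likewise of Icam1, with the same limit as for Nfkb2.

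Icam1 encodes intercellular adhesion molecule 1, a ligand of leukocyte integrins (chromosome 9, 21015985 to 21028817, plus strand). It had 3.96, 3.72 and 2.18 CPM in hIAPP:hCAST, 4.85, 4.72 and 4.61 in hIAPP islets, 9.11, 7.10 and 7.92 in rIAPP islets, 3.52, 3.64 and 5.96 in hCAST, and 3.42, 6.13 and 3.93 in WT. The 3 rIAPP libraries were above all 12 others, and the remaining groups overlapped except that hIAPP:hCAST was below hIAPP. rIAPP was 2.08-fold above WT (log2 1.06 ± 0.263, 95% interval 0.50 to 1.61, adjusted p = 0.00813) and 0.89 ± 0.225 above hCAST (adjusted p = 0.0088). The call against WT was lost without WT 1 (0.87, adjusted p = 0.0901), the library with the lowest WT value. It held without WT 2, WT 3 and rIAPP 2 together, but there WT 1 was the only WT library. That fit therefore does not show the call to be stable. hIAPP was lower than rIAPP, at 0.582-fold (log2 -0.78 ± 0.224, adjusted p = 0.0288), a call lost without hIAPP 1, hIAPP 2, hIAPP 3, rIAPP 1 or rIAPP 3 (0.0678 to 0.131) and without WT 2, WT 3 and rIAPP 2 together (0.0654). The hIAPP difference from WT was 0.28 ± 0.262, with a 95% interval of -0.28 to 0.83. The comparisons with WT share the WT libraries, so the differences of hIAPP and of rIAPP from WT are not independent of each other.

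Islets hold endothelial, stromal and immune cells besides endocrine cells, and in bulk RNA a change in the number of cells of a type and a change in RNA per cell cannot be told apart. Macrophage markers moved with the receptors in hIAPP: 15 of 17 tested markers rose against WT (median log2 1.58), and their summed level was 187 to 321 CPM in hIAPP:hCAST, 323 to 460 in hIAPP, 75.1 to 99.0 in rIAPP, 126 to 132 in hCAST and 83.6 to 122 in WT. Lyz2, a lysozyme of myeloid cells, averaged 65.6 ± 29.7 CPM in hIAPP:hCAST, 157 ± 24.7 in hIAPP, 11.5 ± 1.97 in rIAPP, 12.2 ± 0.481 in hCAST and 9.53 ± 1.28 in WT. In rIAPP against WT 0 of 17 macrophage markers rose and 2 fell, with 9 estimates above 0, 8 below and a median of 0.08, while Icam1 and Tnfrsf1a were called higher. The complement gene C1qa, a large share of the sum in WT, was 1 of the 2 that fell, at 22.3 ± 4.78 CPM in rIAPP and 47.7 ± 14.1 in WT. Of the 17 markers, 0 were at 0 counts in any library. Tnfrsf1b had the same order as the markers over the 3 libraries of hIAPP:hCAST, of hCAST and of WT, but not of hIAPP or rIAPP. In hIAPP:hCAST libraries 1 to 3 the markers summed to 321, 232 and 187 CPM, beside 4.45, 2.71 and 2.54 CPM of Tnfrsf1b. In hIAPP they summed to 404, 460 and 323, beside 5.18, 6.18 and 6.40, and in rIAPP to 84.7, 75.1 and 99.0, beside 4.13, 3.18 and 3.24. The sums were 132.0, 126.3 and 132.2 in hCAST, beside 2.02, 1.96 and 2.68. In WT they were 121.7, 83.6 and 116.3, beside 2.32, 1.75 and 2.24, where the WT 2 value rests on 4 counts.

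Stellate, fibroblast and pericyte markers rose in both IAPP lines, 7 of 10 in hIAPP (median 1.28) and 7 of 10 in rIAPP (median 1.5) against WT. Their summed level was 257 to 594 CPM in hIAPP:hCAST, 851 to 1047 in hIAPP, 882 to 1002 in rIAPP, 381 to 592 in hCAST and 288 to 443 in WT. Endothelial markers rose in rIAPP, 10 of 12 (median 0.50), and in hIAPP 0 rose and 1 fell against WT, with 5 of 12 lower in hIAPP than in rIAPP. Their sums were 507 to 647 CPM in hIAPP:hCAST, 704 to 742 in hIAPP, 888 to 911 in rIAPP, 607 to 666 in hCAST and 616 to 745 in WT. The endothelial sums were highest in rIAPP, the group in which Icam1 was highest. This was not particular to endothelial markers. The acinar gene Cpa1 and the stromal genes Col1a1 and Dcn also had their highest group means in rIAPP, while Pdgfrb and Rgs5 had theirs in hIAPP. No correlation of Icam1 with the endothelial markers was computed. Beta cell markers fell in both lines, 8 of 10 in hIAPP and 10 of 10 in rIAPP. Acinar markers passed edgeR in 0 of 10 in each of the 8 comparisons, with 0 at an unadjusted p below 0.05, although their sum ranged from 5369 CPM in hIAPP:hCAST 3 to 79456 in hIAPP:hCAST 2. All 10 estimates were above 0 against WT, in hIAPP (median 1.09) and in rIAPP (median 1.41). In rIAPP all 10 were higher than in WT without overlap, beside 21.7% of all genes, and in hIAPP 0 were. The 4 tested lymphocyte markers summed to 26.4 to 27.5 CPM in hIAPP:hCAST, at most 17.1 in hIAPP, 8.77 to 10.3 in rIAPP, 9.28 to 14.9 in hCAST and 10.9 to 14.4 in WT, most of it Cd79a, a B cell gene. Of the 4, 1 was higher in hIAPP against WT, 1 in hIAPP:hCAST against hIAPP, 2 in hIAPP:hCAST against hCAST and 2 in hIAPP against rIAPP. Duct markers gave 1 of 6 higher in hIAPP against WT, and other endocrine markers 0 of 5. Over all tested genes 6.27% were higher and 5.59% lower in hIAPP against WT, and 10.7% and 12.6% in rIAPP against WT. The part of these cell types in the results for the 10 genes was not tested.

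**Figure D4:**
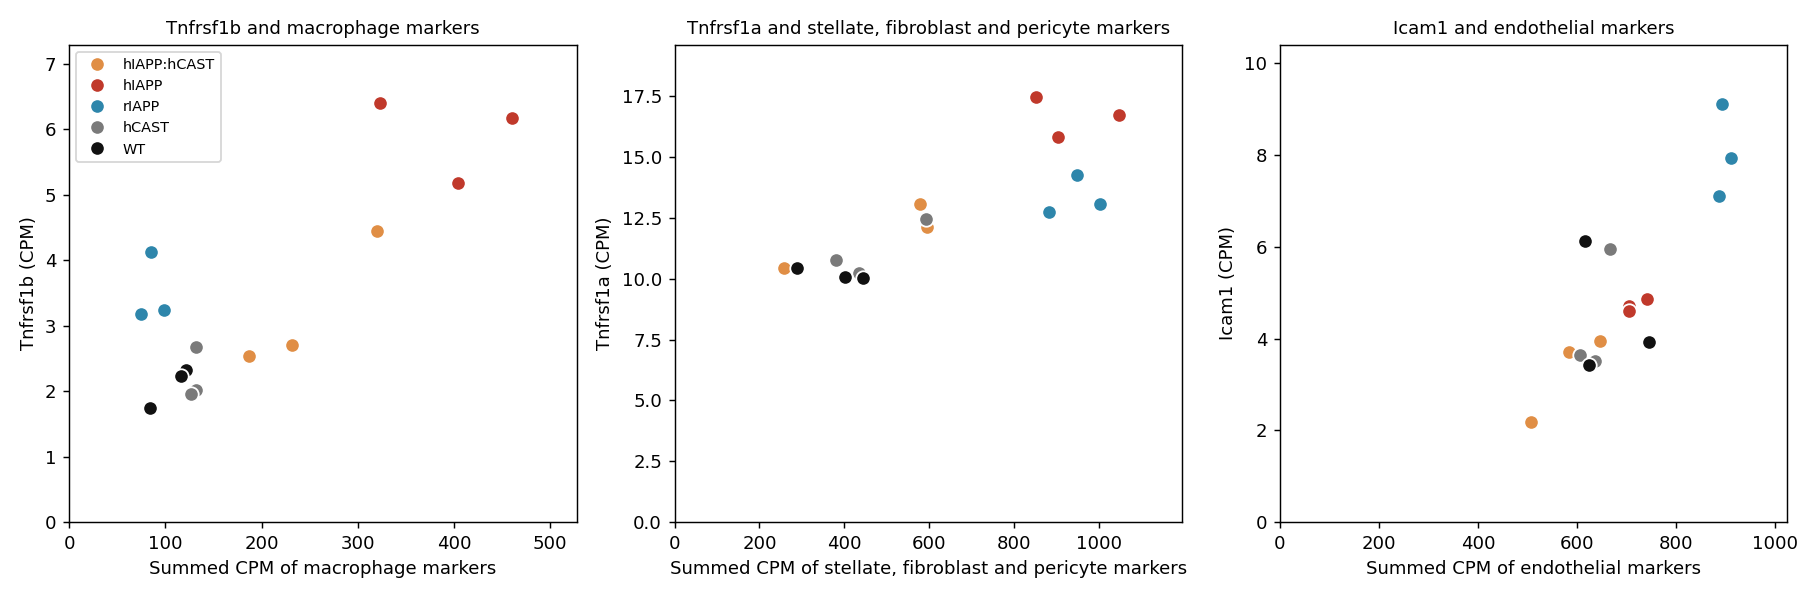
Level (CPM) of Tnfrsf1b, Tnfrsf1a and Icam1 in each library against the summed CPM of macrophage, stellate and endothelial markers, 1 point per library, coloured by group. The 3 hIAPP libraries lie at the upper right of the first panel (323 to 460 CPM of macrophage markers), and the 3 rIAPP libraries at the upper right of the third (888 to 911 CPM of endothelial markers).

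Across the 15 libraries the 2 receptors followed each other closely (Pearson r = 0.93 between their log2 CPM), and Nfkb2 followed both (0.85 with Tnfrsf1a and 0.81 with Tnfrsf1b). Icam1 ran against Nfkb1 (-0.48) and Tnfaip2 (-0.47). With the mean of the macrophage markers, r was 0.77 for Tnfrsf1b, 0.67 for Tnfaip2, 0.67 for Tnfrsf1a, 0.65 for Relb, 0.57 for Nfkb2 and -0.31 for Icam1. These are descriptions over 15 libraries in 5 groups that share group, depth and cell makeup, and no p was computed. The genes whose pattern was most like the mean of the 10 were Ltbp1 (r = 0.96), which encodes a TGF-beta binding matrix protein, Rgs5 (0.93), a pericyte gene, Mmp12 (0.92), the macrophage elastase, and Mical1 (0.92). For single genes the closest were Jag1 for Tnfrsf1b (0.96), Adamts10 for Tnfrsf1a (0.95), Penk for Icam1 (0.94), Rcsd1 for Tnfaip2 (0.90), Cercam for Nfkb2 (0.88) and Adam8 for Relb (0.87). For the remaining genes they were Selt for Nfkb1 (0.95), Arl4d for Nfkbia (0.95), Lefty1 for Tnfaip3 (0.90) and Gadd45g for Nfkbiz (0.87). Each was the best of 15460 genes.

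The rest of the pathway was read from 6 lists chosen with earlier results of these data known. Over all tested genes, 11.9% were called in hIAPP against WT (6.27% higher and 5.59% lower). In rIAPP against WT the share was 23.3% (10.7% higher and 12.6% lower), and in hIAPP against rIAPP 13% (7.71% and 5.28%). Of the other NF-kB subunits and IkB proteins, 0 of 6 passed edgeR in hIAPP against WT (1 at an unadjusted p below 0.05) and 1 of 6 in rIAPP, where Nfkbie, which encodes IkB-epsilon, rose by 0.48 ± 0.162 (adjusted p = 0.0411). Rela, the main transactivating subunit, averaged 20.4 ± 0.986 CPM in hIAPP:hCAST, 22.6 ± 0.680 in hIAPP, 20.0 ± 2.04 in rIAPP, 19.3 ± 0.987 in hCAST and 26.4 ± 6.95 in WT. Of 30 IKK components, adaptors and kinases, 1 rose and 1 fell in hIAPP against WT, beside 6.27% and 5.59% of all tested genes. Ikbke, an IKK-related kinase, rose, at 11.6 ± 0.894 CPM in hIAPP and 8.68 ± 0.396 in WT (0.42 ± 0.108, adjusted p = 0.0216). Tab2, an adaptor of the TAK1 kinase, fell (-0.40 ± 0.112, adjusted p = 0.0287). In rIAPP Traf3 rose by 0.31 ± 0.10 while Traf6 (-0.29 ± 0.0919) and Traf5 (-0.77 ± 0.250) fell, 3 of 30 beside 23.3% of all tested genes. Traf5 and Ikbke were higher in hIAPP than in rIAPP, by 0.94 ± 0.226 and 0.41 ± 0.0989. Their medians stayed between -0.05 and 0.03 in these 3 comparisons.

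Of the 11 negative regulators tested, 3 fell in hIAPP and 6 in rIAPP against WT, beside 5.59% and 12.6% of all tested genes. In either comparison 0 rose, beside 6.27% and 10.7% of all tested genes, and the medians were -0.10 and -0.21. Rnf11, a partner of A20, averaged 88.6 ± 0.318 CPM in hIAPP, 82.3 ± 3.47 in rIAPP and 111 ± 10.3 in WT. It fell by 0.31 ± 0.0686 in hIAPP (adjusted p = 0.00922) and by 0.42 ± 0.0691 in rIAPP (adjusted p = 0.000332). Cyld, a deubiquitinase that restrains IKK activation, fell by 0.27 ± 0.0666 in hIAPP and by 0.26 ± 0.0670 in rIAPP. Tax1bp1, an adaptor of A20, fell by 0.25 ± 0.0715 and 0.28 ± 0.0717. Tnip1, another A20 partner, was higher in hIAPP than in rIAPP, at 29.7 ± 2.71 and 23.3 ± 0.983 CPM (0.35 ± 0.0822, adjusted p = 0.00759).

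TNF itself was barely detected, at 0.172 ± 0.0677 CPM in hIAPP:hCAST, 0.159 ± 0.0814 in hIAPP, 0.292 ± 0.134 in rIAPP, 0.121 ± 0.0438 in hCAST and 0.0358 ± 0.0621 in WT. Of the 9 TNF superfamily ligands tested among 18 listed, 0 rose and 1 fell in hIAPP against WT, namely Tnfsf9, at 1.40 ± 0.430 CPM in hIAPP and 2.64 ± 0.368 in WT (-0.84 ± 0.258, adjusted p = 0.0439). In rIAPP 3 rose, among them Eda (1.09 ± 0.257) and Tnfsf10, which encodes TRAIL (0.45 ± 0.146), and Tnfsf9 fell (-0.78 ± 0.266), beside 10.7% and 12.6% of all tested genes. Beside 6.27% of all tested genes, 3 of the 18 other TNF receptor superfamily genes tested rose in hIAPP against WT. They were Ngfr, the low-affinity neurotrophin receptor, at 4.24 ± 0.296 CPM in hIAPP and 1.97 ± 0.362 in WT (1.23 ± 0.265, adjusted p = 0.00766), Tnfrsf21, a death receptor (0.50 ± 0.120, adjusted p = 0.0147), and Ltbr, the lymphotoxin beta receptor that feeds the non-canonical arm (0.35 ± 0.0899, adjusted p = 0.0199). In rIAPP 3 rose and 1 fell, beside 23.3% of all tested genes called in either direction. The rises were led by Tnfrsf12a, the TWEAK receptor, at 6.03 ± 1.19 CPM in rIAPP and 2.45 ± 0.415 in WT (1.27 ± 0.230, adjusted p = 0.000709). Tnfrsf9, which encodes 4-1BB, was the 1 that fell, at 1.05 ± 0.276 CPM in rIAPP and 5.51 ± 2.03 in WT (-2.41 ± 0.268, adjusted p = 6.95e-06). It was higher in hIAPP than in rIAPP, by 1.70 ± 0.252 (adjusted p = 0.000183).

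Of 21 further NF-kB target genes tested among 30 listed, 6 rose and 0 fell in hIAPP against WT (median 0.71), and 9 rose and 2 fell in rIAPP (median 0.54). Over all tested genes 6.27% rose and 5.59% fell in hIAPP, and 10.7% and 12.6% in rIAPP. The list was chosen with earlier results of these data known, so these counts do not test an excess. Bcl2a1b, an anti-apoptotic gene with near-identical copies between which reads may be split, averaged 1.60 ± 0.279 CPM in hIAPP and 0.328 ± 0.102 in WT (2.57 ± 0.374, adjusted p = 0.000605). Ier3, an immediate early gene, was higher in both lines, by 1.03 ± 0.183 in hIAPP and 0.94 ± 0.186 in rIAPP. Plau, which encodes urokinase, was higher by 1.51 ± 0.323 in hIAPP and by 2.10 ± 0.325 in rIAPP. Cfb, complement factor B, averaged 5.31 ± 0.234 CPM in rIAPP and 1.72 ± 0.361 in WT (1.49 ± 0.232, adjusted p = 0.000181), and it was lower in hIAPP than in rIAPP (-0.85 ± 0.192). Gadd45b, a stress-response gene, fell in rIAPP to 7.80 ± 1.65 CPM, against 22.0 ± 8.45 in WT (-1.30 ± 0.273, adjusted p = 0.004), and it was higher in hIAPP than in rIAPP by 1.13 ± 0.249. In hIAPP:hCAST against hIAPP 0 of the 21 passed edgeR, though 12 had an unadjusted p below 0.05, beside 1743 of all 15460 tested genes. The median was -0.55 beside 0.00 over all genes, and 8 genes were lower without overlap, beside 8.69% of all genes. Against hCAST, hIAPP:hCAST had 1 call, Bcl2a1b (2.41 ± 0.305, adjusted p = 0.00076), beside 0.75% of all tested genes. In hCAST against WT 0 of the 21 passed edgeR, with 2 at an unadjusted p below 0.05, beside 1133 of all 15460. In the interaction 0 passed, with 8 at an unadjusted p below 0.05, beside 1346.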

How the data were processed

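RNA of bulk islets was measured in 15 libraries, 3 per group. Per the labels' protocols, the RNA came from the RNeasy Mini Kit, and library preparation named TruSeq with Ribo-Zero and NuGEN Ovation. The deposited table of counts gives, per gene symbol, the whole number of reads that the authors assigned. Per the submitters' processing notes, STAR and HTSeq were used, with no versions given, on GRCm38, also named mm10. The annotation and the strand setting of the counting are not given in the sources used here. By comparison of both tables, each deposited FPKM value is the count over a fixed length per gene and over a column total in which ribosomal reads are included. All 15 columns of each table were matched to a library by title, and 0 columns were left unused. Of the rows, 2 repeat a symbol.

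The main test was edgeR's quasi-likelihood test (version 4.0.16, R 4.3.3) with TMM scaling. Low counts were filtered by group with the default settings, dispersions were robust, and all 15 libraries entered 1 fit with a coefficient for each group. Of 24060 rows, 15460 were tested, with a common biological coefficient of variation of 0.132. P-values were adjusted by Benjamini-Hochberg for each comparison over its tested genes, and 0.05 was the threshold for a call. The SE is the size of the log2 fold change divided by the square root of F, and intervals are at 95%. The 8 comparisons were hIAPP against WT, rIAPP against WT, hIAPP against rIAPP, hIAPP:hCAST against hIAPP, hIAPP:hCAST against hCAST, hCAST against WT, the average of human IAPP over both backgrounds, and the interaction. TPM were computed from the deposited FPKM by rescaling each library to a total of 1000000 over all rows except Rn45s, Lars2 and Mir6236. Alternatives used DESeq2 1.42.0, limma 3.58.1 (voom with sample weights, and log2 of rescaled FPKM plus 1 or plus 0.1), relative log expression scaling, no filter, the compared groups alone, hCAST in place of WT, and fits without single or ribosomal-rich libraries. The fit was also run on simulated counts for hIAPP against WT, with a single dispersion for all genes and no filter on low counts. Those settings differ from the fit reported, so the simulation is not a check of its calls.

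The 10 genes, the gene lists and the alternatives were chosen with earlier results of these data known. Beyond the 10, the genes named were up to 4 called genes with the smallest p per list and comparison, up to 2 marker examples per cell type, the genes with the highest correlation, and checks of the labels and tissue. Tnf and Rela were named after their values were seen. Promoter windows are RefSeq's on GRCm38.p6, and gene coordinates are GENCODE M21's on GRCm38. Libraries are numbered in accession order within a group. The labels do not say that libraries of a group came from separate mice, so p-values measure the spread between these libraries, which may be technical. Title numbers form separate ranges for the hIAPP and hIAPP:hCAST libraries, for rIAPP and for hCAST and WT. What the ranges mark cannot be told apart from the IAPP transgenes.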

Additional observations from a re-analysis of the deposited data

How the results depend on the processing

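Over the 10 genes and all comparisons and alternatives, 1320 values were computed. Of these, 1243 had the sign of the value reported and 77 the opposite sign without a call in either fit, while 62 lost a call, 23 gained 1 and 0 calls reversed. Most of the 1320 values had no call to lose, so the 62 are not a share of them. The losses were 22 in hIAPP against rIAPP, 18 in rIAPP against WT and 11 in hIAPP against WT. In hIAPP:hCAST against hIAPP, where 1 gene was called, they were 7, and for the average over both backgrounds 4. Of the 10 genes, 3 passed in hIAPP against WT, against 1 without the ribosomal-rich libraries WT 2, WT 3 and rIAPP 2 and 2 to 3 when single libraries were left out. In rIAPP against WT 4 passed, against 1 without the ribosomal-rich libraries and 1 to 4 without single libraries. In hIAPP against rIAPP 4 passed, against 1 without the ribosomal-rich libraries, 1 on log2 of rescaled FPKM plus 0.1 and 1 to 2 without single libraries. In hIAPP:hCAST against hIAPP 1 passed, against 2 with DESeq2, 2 with no filter on low counts, 0 with the compared groups alone, 0 on rescaled FPKM plus 1, 0 on rescaled FPKM plus 0.1 and 0 to 2 without single libraries. For the average over both backgrounds 3 passed, against 5 on rescaled FPKM plus 1 and 2 to 5 without single libraries. In hCAST against WT, hIAPP:hCAST against hCAST and the interaction, 0 to 0 passed without single libraries. The number of all tested genes that passed moved too. Without single libraries it was 995 to 1414 in hIAPP against WT and 2623 to 3335 in rIAPP against WT. In hIAPP against rIAPP it was 1302 to 1728 without single libraries and 1000 on rescaled FPKM plus 0.1. In hIAPP:hCAST against hIAPP it was 18 to 175 without single libraries. For the average it was 1266 to 2743 without single libraries and 1516 on rescaled FPKM plus 1 (2034 in the fit reported). Without the ribosomal-rich libraries it was 383 in hIAPP against WT (1833 with all), 1525 in rIAPP against WT (3599) and 1359 in hIAPP against rIAPP (2009). In hIAPP:hCAST against hIAPP it was 2 with the compared groups alone, 278 with DESeq2 and 116 with no filter, 34 on rescaled FPKM plus 1 and 9 plus 0.1 (72 in the fit reported). The causes were not tested, except that fits without libraries hold fewer samples. Rescaled FPKM moved the median of all genes by 0.11 (plus 1) and 0.15 (plus 0.1) in hIAPP against WT. No paired analysis was possible because the title numbers are not shared between groups and the replicate numbers follow accession order. Depth limits the low genes in WT 2, where Tnfrsf1b rests on 4 counts. No interval of a single library was computed, and outlier tests do not apply to groups of 3.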
